A study of Drosophila busckii and Drosophila melanogaster and Drosophila virilis with 5 samples.

Results

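The Hox genes Antennapedia (Antp), Ultrabithorax (Ubx) and abdominal-A (abd-A) of Drosophila virilis were described by their place among the boundaries of topologically associating domains (TADs). They were taken from the deposited D. virilis annotation by gene symbol, after the species prefix, and are 3 of its 14556 genes. The symbol of each matched exactly 1 gene, and each of them lies on arm 3R. The rule itself uses no boundary, TAD or score.

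Hox genes encode homeodomain transcription factors that give the segments of the embryo their identity along the head to tail axis. In D. melanogaster they lie in an Antennapedia complex, which patterns the head and anterior thorax, and a bithorax complex, which patterns the posterior thorax and the abdomen. Their expression is set by long stretches of regulatory DNA, is kept off by Polycomb group proteins and on by trithorax group proteins, and depends on boundaries that keep neighbouring regulatory stretches apart. Antp specifies the second thoracic segment, Ubx the third thoracic and first abdominal segments, and abd-A some of the abdominal segments behind them.

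The study mapped chromosome folding by in situ Hi-C, which counts ligated contacts between pairs of loci, to ask how genome rearrangement relates to TADs in Drosophila. D. virilis embryos were from San Diego stock center stock 15010-1051.0 and D. melanogaster embryos from strain w1118 Oregon R, all of mixed sex and of stage 15 to 16. The 2 replicates of each species were merged into 1 contact map, from which 1 boundary list was called. There is therefore no spread between replicates for any position or score given here, and no test between species was made.

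A TAD is a chromosomal segment with frequent contacts within it and fewer contacts to the segments on either side, and it was taken to run between the centres of consecutive boundaries. Each boundary has a TAD-separation score. The score falls as fewer contacts cross the boundary, so boundaries with a high score are called weak here and those with a low score strong. The scores of the positions around a boundary are not in the lists. How far contacts drop at a boundary relative to its flanks was therefore not measured. The D. virilis list held 2127 boundaries, 519 of them on 3R, with a median width of 967 bp and a median score of -0.0543 (quartiles -0.151 and 0.0610). The median of its 2121 TADs was 39.6 kb long and held the starts of 4 coding genes. Neither the contacts behind a boundary nor the depth at a locus is in the lists, so a boundary may be missing where contacts were few. Positions in D. virilis are those of the study's Hi-C assembly.

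The 3 genes were not adjacent in D. virilis. Antp, at 3R from 17382661 to 17503072, was followed on its 5′ side by Ubx, at 3R from 17589184 to 17682001, and both lay on the minus strand. The facing ends of these 2 genes were 86.1 kb apart. The gene abd-A, at 3R from 23837240 to 23863148, lay on the plus strand, so that Ubx and abd-A faced each other with their starts across 6155 kb. That interval held 595 coding genes and 90 boundaries, of which 52 had a score under 0. Over the whole list 36% of boundaries had a score over 0 and the others a lower one. The interval between Antp and Ubx held 3 coding genes and 2 boundaries, neither with a score under 0, too few to set against that share.

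All 3 were long genes in TADs longer than the median, with few coding genes for their length. Antp was 120.4 kb long, Ubx 92.8 kb and abd-A 25.9 kb, at or above the 93.7 percentile of coding gene length, whose median was 2.21 kb. The TAD that held the gene's start was 164.1 kb long for Antp, 232.1 kb for Ubx and 64.0 kb for abd-A. Against all TADs of the list these lengths were at the 88.5, 93.8 and 68.8 percentiles. Ubx and abd-A lay whole within their TADs, so each of these TADs had to be at least as long as its gene. TADs of genes of like length were not compared. Coding gene starts numbered 1.83 per 100 kb in the TAD of Antp, 3.02 in that of Ubx and 1.56 in that of abd-A, while the median TAD had 10.4 per 100 kb. The genes themselves covered 63.4%, 39.99% and 40.5% of these TADs.

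The gene starts lay farther from boundaries than that of the median coding gene. The nearest boundary centre was 60.0 kb from the start of Antp, 94.3 kb from that of Ubx and 26.1 kb from that of abd-A. The median distance over the 13322 coding genes between the outermost boundaries was 10.8 kb. Among these genes the distances were at the 87.2 percentile for Antp, 93.1 for Ubx and 72.4 for abd-A. Without a boundary inside Ubx, its start cannot be nearer to the 3′ boundary than the gene is long. Of the 3 starts 0 lay within 1 kb of a boundary, where 13.8% of coding genes did. With 3 genes, a count of 0 does not depart from that share. With all boundaries the order was Ubx, Antp, abd-A for both TAD length and distance. With only the stronger 50% of boundaries, or only those with a score under 0, Antp at 403.9 kb was farther from a boundary than Ubx at 225.0 kb, and both shared a TAD of 842.8 kb. The boundary intervals at the ends of these TADs were 0.906 to 2.17 kb wide, less than any of the differences between the genes.

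**Figure D1:**
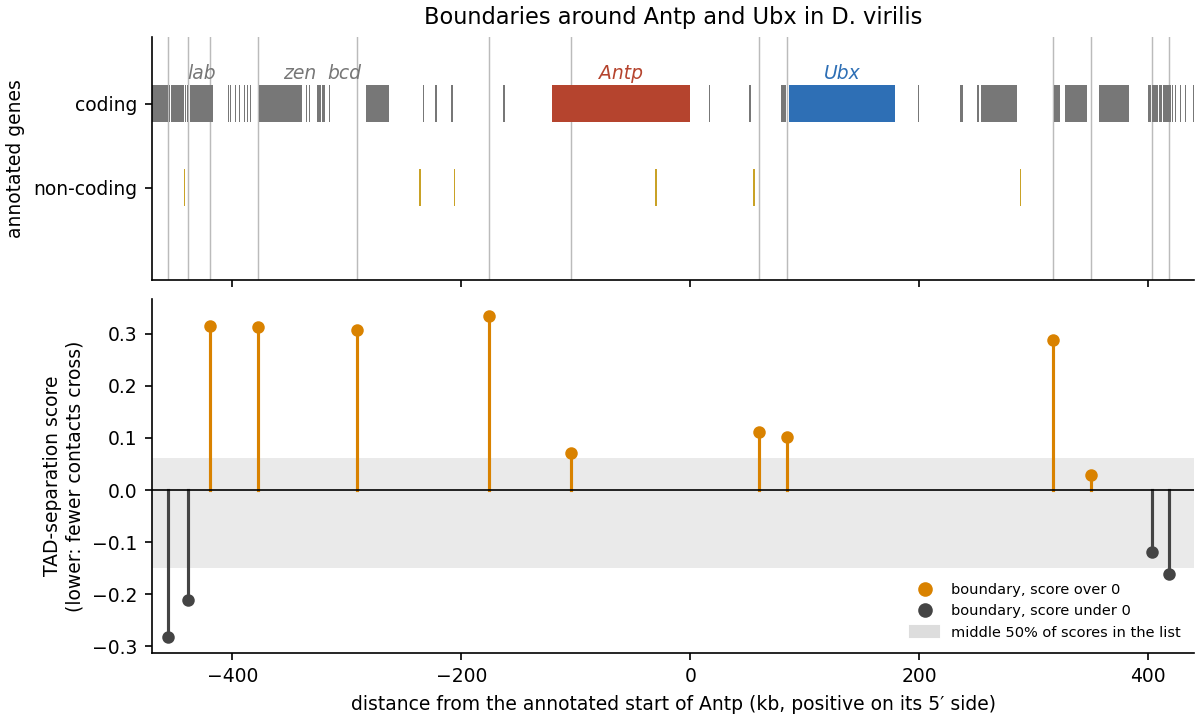
Annotated genes (top) and the TAD-separation score of each boundary (bottom) around Antp and Ubx in D. virilis, by distance in kb from the annotated start of Antp, positive on its 5′ side. Grey vertical lines repeat the boundary positions and the grey band holds the middle 50% of scores in the list. Every boundary from 419.7 kb on the 3′ side to 350.2 kb on the 5′ side of that start has a score over 0.

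Antp was split by a boundary. Among the 3 genes it was the only one with a boundary centre inside it, which 8.74% of all coding genes and 28.5% of coding genes of at least 50 kb had, and Antp and Ubx are the 2 members of that length. Of 59 coding genes longer than Antp, 19 held a boundary. The boundary ran from 17398253 to 17399672 and had a score of 0.0708, higher than or equal to 76.4% of the list.

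That boundary lay in an intron and, with all boundaries used, separated the starts of Antp from its protein-coding sequence. It was 16.3 kb from the 3′ end of the gene and 104.1 kb from its main start at 17503072, within an intron in 5 of 5 annotated transcripts, and it overlapped no exon. Antp has a further annotated start at 17421058, used by 1 transcript of 38.4 kb, and the boundary was 22.1 kb from it on the 3′ side too. The intron around the boundary was 24.7 kb long in that transcript and 72.8 kb in the others. Of the 1140 bp of annotated Antp coding sequence, 100% lay on the 3′ side of the boundary, and 0 bp shared a TAD with either start. Of the 9 distinct exons 6 were on the 3′ side. By length, 86.5% of the gene was in the TAD of its start, where it covered 63.4% of that TAD, and 13.5% was beyond the boundary.

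The next boundaries on either side of Antp were also weak. On its 5′ side the boundary from 17562608 to 17563513, with a score of 0.112, was 60.0 kb upstream of the main start, and on its 3′ side the boundary from 17326372 to 17327439, with a score of 0.335, was 55.8 kb past the 3′ end. The TAD of Antp held 2 other coding gene starts, GJ27133 at 16.4 kb and GJ23308 at 51.6 kb upstream. It also held the non-coding genes GJ26819, which lies on the opposite strand within Antp, and GJ25583. On the 3′ side the nearest coding gene was GJ23928, 41.7 kb away, a distance larger than or equal to that of 97.2% of coding genes.

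The D. virilis boundary sequence itself was not analysed here, and the boundary at the corresponding place in D. melanogaster is shown instead. In that species a boundary lay in an intron of Antp at nearly the same distance from the 3′ end, 16.3 kb in D. virilis and 16.6 kb in D. melanogaster. Its score of 0.0180 was higher than or equal to 74.9% of the D. melanogaster list, beside 76.4% for the D. virilis boundary in its own list. In D. melanogaster too 100% of the coding sequence was 3′ of the boundary, and 12 of 12 annotated transcripts span it. The inner start of Antp nearest to the boundary was 22.1 kb from it in D. virilis and 20.0 kb in D. melanogaster. In D. melanogaster the coding gene CG46458 also spans the boundary centre. The nearest annotated start of any gene there was that of lncRNA:CR43252, 8.14 kb away. The middle 300 bp of the D. melanogaster boundary, chr3R:6912669-6912968 of BDGP6, plus strand, overlap no annotated exon. They are printed with the middle of the boundary that separates Ubx from abd-A in D. melanogaster, chr3R:16797925-16798224, also outside exons, where it flanks both genes. Capitals mark matches to 3 motifs of fly boundary proteins, AGNNGGCGC for CTCF, GAGAG for GAGA factor and CGATA for BEAF-32, searched on both strands.
Antp intronic boundary: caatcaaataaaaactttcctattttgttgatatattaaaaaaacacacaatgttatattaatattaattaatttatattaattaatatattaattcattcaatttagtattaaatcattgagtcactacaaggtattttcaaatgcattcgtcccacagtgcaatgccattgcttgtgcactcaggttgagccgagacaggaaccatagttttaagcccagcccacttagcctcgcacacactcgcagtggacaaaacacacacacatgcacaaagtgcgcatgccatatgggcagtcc
Ubx and abd-A boundary: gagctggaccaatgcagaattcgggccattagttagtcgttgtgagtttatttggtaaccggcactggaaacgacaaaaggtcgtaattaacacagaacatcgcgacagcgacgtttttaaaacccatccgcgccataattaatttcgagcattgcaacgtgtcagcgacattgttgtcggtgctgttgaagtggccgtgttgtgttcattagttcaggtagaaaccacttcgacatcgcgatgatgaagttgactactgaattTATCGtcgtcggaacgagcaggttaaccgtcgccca

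The Antp window had no match to any of the 3 motifs and a GC content of 35.3%. The window between Ubx and abd-A had 1 match to CGATA and a GC content of 46.7%. Over the same 300 bp at the middle of all 2209 D. melanogaster boundaries, AGNNGGCGC was found in 4.66%, GAGAG in 27.7% and CGATA in 40.2%. These motifs do not overlap one another in either window.

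Ubx lay whole within the longest of the 3 TADs. No boundary was inside it, the gene covered 39.99% of its TAD, and its 3′ end was close to the TAD's edge. The 3′ boundary, from 17587231 to 17588265 with a score of 0.101, was centred 1.44 kb past the end of the gene. The 5′ boundary, from 17819360 to 17820382 with a score of 0.289, was 137.9 kb upstream of the start. The start therefore lay 94.3 kb from the boundary on the 3′ side, which is nearer than the one upstream.

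The TAD of Ubx held 6 other coding gene starts, all upstream of Ubx. They were GJ23924 at 20.4 kb, GJ26861 at 57.2 kb, GJ23922 at 58.1 kb, GJ23311 at 71.4 kb, GJ23921 at 73.9 kb and GJ23920 beyond them, and 5 of these genes lay on the same strand as Ubx. GJ23920 was the longest of them at 31.8 kb, and the others were at most 1.96 kb long. None is named in the annotation beyond its identifier. The non-coding gene GJ26395 also started there.

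The 86.1 kb between Antp and Ubx were divided by 2 boundaries into 3 parts. The first 60.0 kb from the start of Antp belonged to its TAD and held GJ27133, GJ23308 and GJ25583. Between the boundaries with scores of 0.112 and 0.101 lay a TAD of 24.7 kb with GJ23926 as its only gene. The last 1.44 kb belonged to the TAD of Ubx. Of these boundaries the one at Ubx was near a gene start, 1.32 kb from that of GJ23926, and the one towards Antp was 4.91 kb from the start of GJ25583. These scores were higher than or equal to 82.1% of the list for the boundary towards Antp and 80.8% for the one at Ubx, so both were among its weaker boundaries.

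The gene abd-A had the shortest TAD and no coding neighbour in it. Its TAD ran from 23811104 to 23875106, and abd-A, which covered 40.5% of it, was its only coding gene start, as in 11.2% of TADs. The other gene start there was that of GJ26275, a non-coding gene of 18.8 kb on the same strand, upstream of abd-A. The upstream boundary, with a score of 0.351, was 26.1 kb from the start of abd-A. The downstream boundary, with a score of -0.0991, was 11.96 kb past the end of the gene and 2.52 kb from the start of GJ10600.

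Upstream of abd-A stretched 128.2 kb without a coding gene, up to GJ10598. Of 13387 coding genes only 39 had a longer such stretch on their 5′ side, and the median was 0.596 kb. In D. melanogaster, whose genes come from another annotation, the nearer end of the nearest annotated coding gene on that side was 1.065 kb away. That gene did not start in the TAD of abd-A, which held 1 coding gene start, that of abd-A, in D. melanogaster too. This nearest gene was MSAmiP, which ran across the upstream boundary of that TAD, a boundary centred 39.4 kb from the start of abd-A. In D. virilis the non-coding genes GJ26821 and GJ26275 lay in the stretch upstream of abd-A. Whether they correspond to MSAmiP was not tested. For Antp and Ubx in D. virilis the stretch without a coding gene on the 5′ side was 16.4 and 20.4 kb. The abd-A stretch was crossed by 2 boundaries, the one at 26.1 kb and one at 109.9 kb with a score of 0.534, higher than or equal to 99.3% of the list. Between them, in a TAD of 83.8 kb without a coding gene start, lay the non-coding gene GJ26821, of 51.7 kb, and the microRNA genes mir-iab-4 and mir-iab-8, which are transcribed from opposite strands of the same locus and in D. melanogaster are known to repress Hox genes.

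With all boundaries, these microRNAs fell in another TAD than abd-A in D. virilis. With only the stronger 50% of boundaries, or only those with a score under 0, they fell in the TAD of abd-A, of 306.9 and 226.1 kb. The mir-iab-4 gene was 32.7 kb upstream of the start of abd-A and 6.60 kb beyond the boundary, whose score of 0.351 was at the 96.6 percentile of the list. In D. melanogaster it was 26.2 kb upstream and within the TAD of abd-A, 13.1 kb inside the upstream boundary, which lay 39.4 kb from the start of abd-A and had a score of 0.241, at the 96.1 percentile of that list. With 1 list for each species, the error of either boundary position was not measured.

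**Figure D2:**
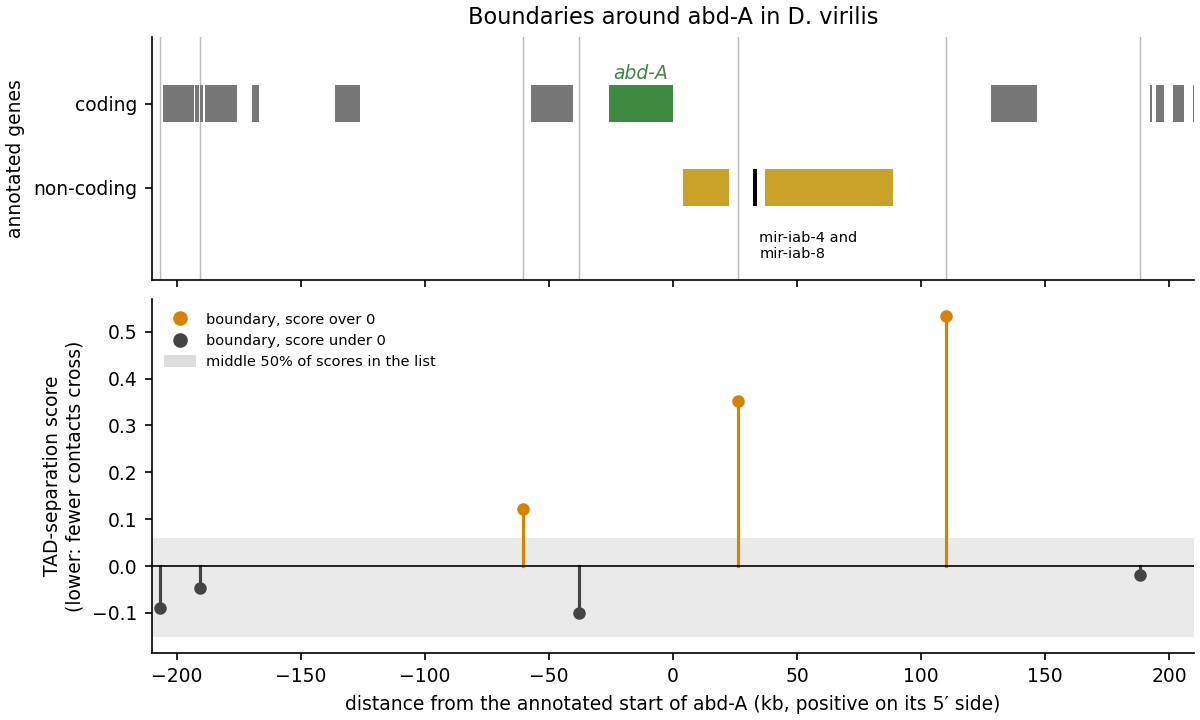
Annotated genes (top) and the TAD-separation score of each boundary (bottom) around abd-A in D. virilis, by distance in kb from the annotated start of abd-A, positive on its 5′ side. The grey band holds the middle 50% of scores in the list, and mir-iab-4 and mir-iab-8 lie just beyond the boundary 26.1 kb upstream.

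Most boundaries at these loci were weak. Of the 7 boundaries inside or next to the 3 genes 6 had a score over 0, against 36% of the whole list. The exception was the one downstream of abd-A. Their scores ran from 0.0708, inside Antp, to 0.351, upstream of abd-A. Of the 3 TADs that hold the gene starts, those of Antp and Ubx had a score over 0 at both ends, as had 16.5% of all TADs. In D. melanogaster 3 of the 6 boundaries inside or next to these genes had a score over 0, against 28.8% of that list. For Ubx there, the boundary within its last bases was taken as its 3′ one. The next boundary beyond, 158.8 kb past the 3′ end with a score of -0.0176, was not counted. Nothing states that the scale of the scores is shared between maps, so percentiles were taken within each list. The threshold of 0 was used in both lists although it falls at a different rank in each. Counts and stretches based on it are therefore not on a like footing between the species.

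**Figure D3:**
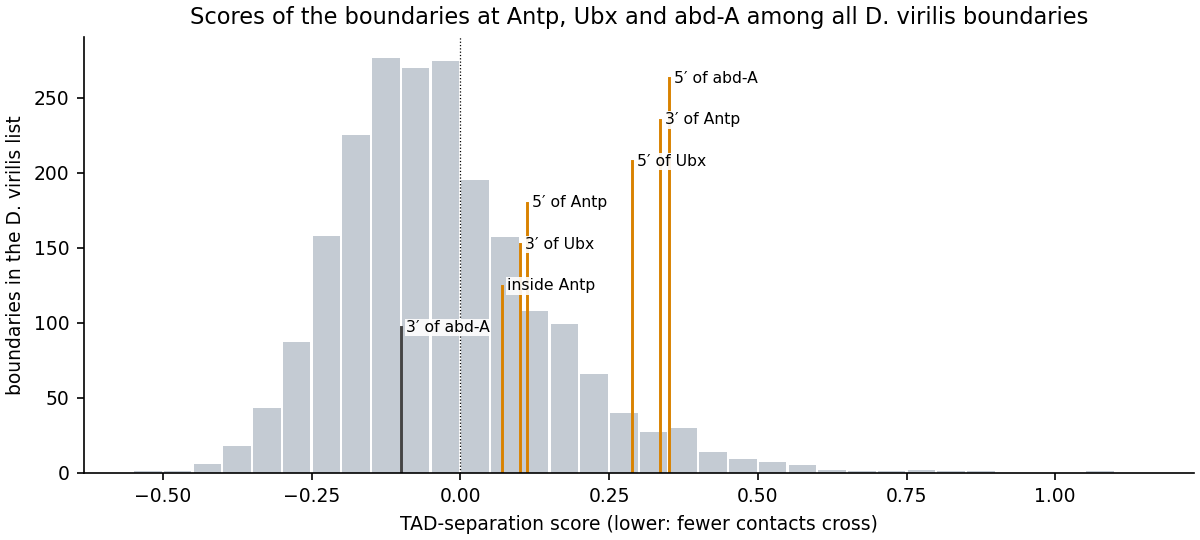
Distribution of TAD-separation scores over all 2127 D. virilis boundaries (grey bars, number of boundaries per bin), with vertical lines at the scores of the 7 boundaries inside or next to Antp, Ubx and abd-A. The line heights only separate the labels. The 6 orange lines lie above 0 and the grey line, 3′ of abd-A, at -0.0991.

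The weak boundaries around Antp and Ubx formed an unbroken run, which was noticed after the positions had been seen. Between the boundary at 17064224, with a score of -0.211, and the boundary at 17906985, with a score of -0.119, lay 9 boundaries in a row with scores from 0.0292 to 0.335. This stretch of 842.8 kb held 39 coding gene starts, among them lab, zen and bcd besides Antp and Ubx. Its length includes 26.7 kb of small scaffold pieces and spacers that the assembly placed between bcd and Antp, with 2 of the coding genes. The gene labial (lab) is the most anterior Hox gene, and zen and bcd are relatives that act in the early embryo and the egg. When all boundaries with a score over 0 are passed over, the D. virilis arms fall into 1355 stretches with a median of 59.3 kb. Only 6 of them were longer than the stretch of Antp and Ubx, 0 of these on 3R, and 0 held more weak boundaries. The stretch of abd-A, by contrast, was 226.1 kb long with 2 weak boundaries, and 192 stretches were longer.

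In D. melanogaster the stretches formed with the same threshold of 0, which falls at another rank of that list, were shorter. They measured 406.1 kb with 4 weak boundaries for Antp, 141.4 kb with 0 for Ubx and 172.1 kb with 2 for abd-A, among 1567 stretches with a median of 41.4 kb. Antp and Ubx shared a stretch in D. virilis, whereas in D. melanogaster they were 9657 kb apart with 182 boundaries between them. Of these 137 had a score under 0, in a list where 28.8% of all boundaries had a score over 0.

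The flanking boundaries lay at the following distances in the 2 species. The first boundary upstream of Antp was 60.0 kb from its start in D. virilis and 67.5 kb in D. melanogaster, where its score of -0.190 was at the 15.3 percentile. At the 3′ end of Ubx a boundary was centred 1.44 kb past the gene in D. virilis and 0.027 kb inside the gene in D. melanogaster, near the start of GJ23926 and of modSP, a serine protease gene of the Toll pathway. This D. melanogaster boundary had a score of -0.226, at the 7.79 percentile, beside the 80.8 percentile of the D. virilis one. Counted in this way 1 of 3 members had a boundary centre inside in D. virilis and 2 of 3 in D. melanogaster, where 10.2% of all coding genes had one, but the boundary in D. melanogaster Ubx touches only its last bases.

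Downstream of abd-A the nearest boundary was 11.96 kb away in D. virilis and 9.14 kb in D. melanogaster. Upstream, the first boundary was 26.1 kb from the start in D. virilis and 39.4 kb in D. melanogaster, and the next was 109.9 kb in D. virilis and 115.6 kb in D. melanogaster, where it lies within Abd-B. The boundary downstream of abd-A in D. melanogaster is at the same time the boundary upstream of Ubx, 63.6 kb from its start, with a score of -0.0315. In D. virilis these were separate boundaries, and the distance upstream of Ubx was 137.9 kb. The 72.8 kb between Ubx and abd-A in D. melanogaster held 2 coding genes and this 1 boundary. The TAD lengths were 164.1 kb in D. virilis and 153.9 kb in D. melanogaster for Antp, 232.1 kb in D. virilis and 141.4 kb in D. melanogaster for Ubx, and 64.0 kb in D. virilis and 71.4 kb in D. melanogaster for abd-A.

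**Figure D4:**
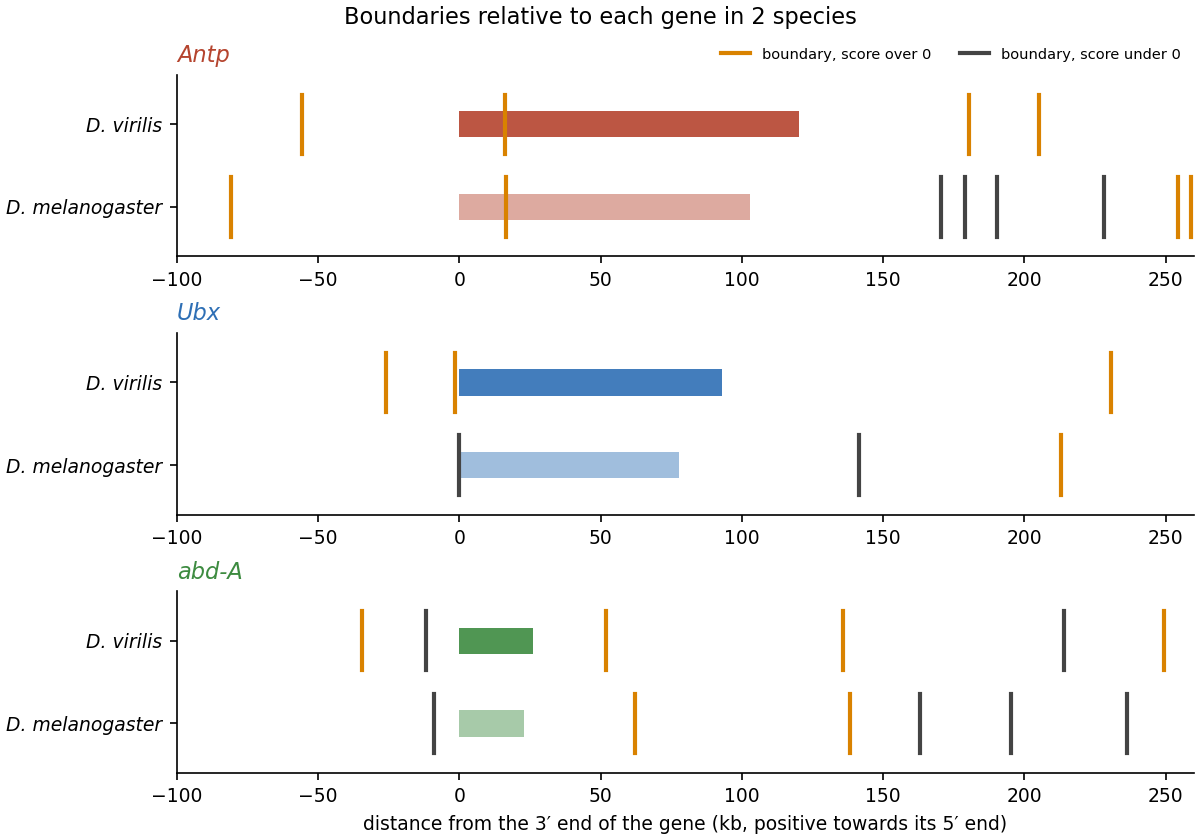
Gene bodies (coloured bars) and all boundary centres (vertical lines) from 100 kb before to 260 kb past the 3′ end of Antp, Ubx and abd-A, D. virilis above D. melanogaster, by distance in kb from the 3′ end towards the 5′ end. The intronic boundary of Antp stands at 16.3 kb in D. virilis and 16.6 kb in D. melanogaster, and the boundary past the 3′ end of abd-A at -11.96 kb in D. virilis and -9.14 kb in D. melanogaster.

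The scaffolds under the genes bear on the neighbourhood of Antp and Ubx. The D. virilis assembly joins pieces of earlier scaffolds, as recorded in the deposited chain file. Antp and Ubx came from a single piece of scaffold 13047, 4.43 Mb long and placed in reverse. The distance between them was 86.1 kb on that scaffold too, with 0 joints between them. Their neighbourhood was thus present before Hi-C scaffolding. The nearest joint was 83.2 kb from Antp and 289.7 kb from Ubx.

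The gene abd-A came from scaffold 12855, on a piece of 10.1 Mb placed forward, and was 450.0 kb from the nearest joint. Between Ubx and abd-A lay 3 joints. Of these 2 rejoined pieces that were next to each other on scaffold 13047, and 1 joined the start of scaffold 13047 to the start of scaffold 12855. Scaffold 13047 continued for 5.69 Mb upstream of Ubx, and scaffold 12855 for 0.448 Mb upstream of abd-A. These lengths add up to 6.14 Mb, the shortest distance that joining the whole scaffolds end to end can give. The strand of abd-A relative to Ubx rests on 1 joint.

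The piece that carries Antp abutted the piece that carries lab, zen and bcd on scaffold 13047, with 0 bp between them. In the assembly 3 small pieces of 1198 to 4246 bp from other scaffolds were placed between them with 4 spacers of 5000 bp, 26.7 kb in all. The distance from bcd to Antp was 198.3 kb in the assembly and 171.6 kb on the scaffold. These small pieces carried 2 coding genes, GJ25768 and GJ16328. The edge of the Antp piece lay 24.96 kb from the boundary past the 3′ end of Antp, and no joint lay in a TAD that holds the start of Antp, Ubx or abd-A.

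**Figure D5:**
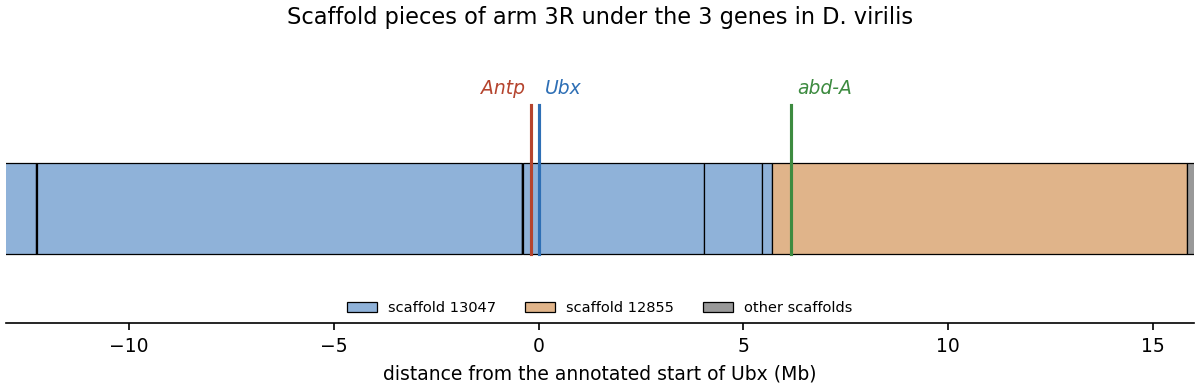
Scaffold pieces of arm 3R around the 3 genes in D. virilis (boxes, coloured by source scaffold), by distance in Mb from the annotated start of Ubx, with vertical lines at the gene starts. Antp and Ubx share a piece of scaffold 13047 and abd-A lies on scaffold 12855.

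The other Hox genes and their regulators could be placed in part. Of the 12 gene symbols of the Antennapedia and bithorax complexes searched, 6 matched in D. virilis and 12 in D. melanogaster. The symbols pb, zen2, Dfd, Scr, ftz and Abd-B did not match, so the genes next to abd-A and on the 3′ side of Antp could not be compared with their D. melanogaster counterparts. Besides Antp, lab was the only matched Hox gene of D. virilis with a boundary inside, which had a score of 0.315 and lay in its 16.1-kb intron, 2.36 kb from its start. Of 16 Polycomb group genes 1 matched in D. virilis, and of 8 trithorax group genes 2 did. The start of trx, whose product keeps Hox genes active, was 0.346 kb from a boundary, that of the Polycomb group gene esc 14.9 kb and that of Trl, which encodes GAGA factor, 16.0 kb, and the cofactor genes exd and hth did not match. In D. melanogaster 8 of 16 Polycomb group genes and 5 of 8 trithorax group genes started nearer to a boundary than the median coding gene, at 9.09 kb, and 0 of 2 cofactor genes.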

How the data were processed

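In situ Hi-C libraries of D. virilis and D. melanogaster embryos were mapped by the authors with BWA and turned into contact matrices of DpnII restriction fragments. Per the study's methods, the 2 replicates of a species were summed, the matrix was corrected iteratively and boundaries were called with HiCExplorer 1.8.1. Each deposited list gives the interval of a boundary and its score, the TAD-separation score computed by the authors, on which no further step was run here. The contacts behind a boundary are unknown, and deeper maps can show more boundaries. The D. virilis gene positions are the FlyBase 1.06 annotation, which the authors moved from dvir_caf1 scaffolds with CrossMap 0.2.5, and the deposited chain file gives the scaffold pieces. Pieces are 5000 bp apart there, a longer spacer than the methods describe, and this difference was not resolved.

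Members and lists were chosen with earlier results of these data known. Genes named are the members, other Hox symbols, coding genes between Antp and Ubx, in the members' TADs or among the 5 nearest on each side, genes at their boundaries, and Polycomb group, trithorax group and cofactor genes. Genes of D. melanogaster were from Ensembl release 115. Of the edges of its boundaries 75.2% lay within 3 bp of a bin centre rebuilt from the BDGP6 sequence, against 1.15% after a shift of 1000 bp. Motif matches were counted in the middle 300 bp of each D. melanogaster boundary. Values were computed with Python 3.11.15, and the functions were checked on simulated boundaries. No test was run, because there is 1 list for each species. Percentiles give the share of a list at or below a value. Alternatives changed the boundaries used, their position, the gene position and the interval ends. The D. busckii list was not analysed here.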

Additional observations from a re-analysis of the deposited data

How the results depend on the processing

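With only the stronger 50% of boundaries, or only those with a score under 0, the TAD of Antp and that of Ubx in D. virilis became the same 842.8-kb stretch. No boundary then lay between them or inside Antp (0 in each case). The distance from start to boundary became 403.9 kb for Antp, 225.0 kb for Ubx and 37.9 kb for abd-A under both settings. The TAD of abd-A became 306.9 kb with the stronger 50% and 226.1 kb with scores under 0. In D. melanogaster the TAD of Antp became 406.1 kb under both settings. With the stronger 50%, Ubx and abd-A shared a TAD of 313.5 kb there, and with scores under 0 that of abd-A became 172.1 kb. The order of Antp and Ubx by distance from start to boundary was reversed under both boundary settings, and mir-iab-4 then lay in the TAD of abd-A in D. virilis, as it did in D. melanogaster with all boundaries and under both settings.

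From the gene midpoint the nearest boundary was 43.9 kb away for Antp and 47.8 kb for Ubx in D. virilis, and from start to start Antp and Ubx were 178.9 kb apart. Using facing boundary edges, interval overlap, all annotated genes or the ends of pieces left each of the 16 values recomputed within the width of its boundary interval, within the spacer or within 1.5 times of its count. The replicate maps behind each list were merged before the boundaries were called, so leaving out a replicate could not be run. No paired analysis was possible because the lists carry no replicates. The depth at each boundary is unknown, so the number of weak boundaries that a deeper map would add or drop was not tested.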
